A study of Bubalus bubalis with 8 samples.

Results

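Buffalo (Bubalus bubalis) mammary epithelial cells (MECs) were compared soon and later after a heat shock: the arrays of 30 min and 2 h of recovery (early) against those of 4 h and 16 h (late). These 4 arrays, of 8 in the series, were chosen because they share a slide, so that the difference does not rest on the control array or on the other slide. By their labels all 4 came from primary MECs of a female animal at passage 10, exposed to 42 °C for 1 h and then returned to 37 °C with 5% CO2, and harvested at the stated time. The remaining 4 arrays were the control (CTR), kept at 37 °C throughout, and the samples of 8 h, 12 h and 24 h, all on the other slide. Each time was 1 array of the Agilent bovine design, so a side held 2 arrays of different times (n = 2), and the spread within a side includes the difference between its 2 times. The CTR array entered no difference below.

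Cells respond to heat by refolding damaged proteins with heat shock proteins, and recovery brings this programme down again. In the mammary gland the secretory epithelium makes caseins, whey proteins and milk fat. Resident macrophages and other leukocytes are among the cells, but not the only ones, that express cytokine and antigen presentation genes. NF-kB is the transcription factor family that drives many cytokine genes and also switches on its own inhibitors.

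Levels are given as log2 values relative to the 75th percentile of their array, so a difference of 1 is a doubling, and 4 levels in a row stand for 30 min, 2 h, 4 h and 16 h, in that order. Of 43653 non-control probes, 17751 were well above background on the 2 h array or on both late arrays, by the flags of the scanner files. Of these, 409 lay in a rectangle of the slide where the 16 h array was dark, and 17342 were kept. Inside the rectangle the median of 16 h minus 4 h was -1.03, against 0.09 outside. The filter asks for 1 early array but for both late arrays, so a probe seen on 1 side alone had to differ, and it is easier to pass on the early side. Counts and medians of gene lists are therefore given for the 10554 probes well above background on 2 h, 4 h and 16 h, called bright probes here. The lowest level well above background was -2.04 on the 2 h array, -1.73 on 4 h and -0.09 on 16 h, and the last value was also used for the 30 min array, whose scanner file departs from its deposited values. A bright probe thus had to reach a higher level on 16 h than on 2 h or 4 h, and no limit was asked of 30 min. At low levels this leaves more room for calls of lower early than of higher early, and it bears on the bright counts and medians.

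The markers of other cell types moved with the comparison and are given first. Of 9 mammary epithelial markers on the array, all 9 were kept and none was called in either direction, and 9, 8 and 9 of them were detected at 2 h, 4 h and 16 h. KRT5, a basal keratin, had levels of 6.57, 6.03, 6.80 and 7.15. Of 11 leukocyte markers, 9 were kept and 7 were called higher early. Their summed level (log2) was 7.67, 7.15, 4.24 and 4.95, against 3.06 to 3.54 on the 4 arrays of the other slide. Only ITGAM of that list was detected on none of 2 h, 4 h and 16 h. Of 8 fibroblast markers, 3, 4 and 7 were detected at 2 h, 4 h and 16 h. Of these 8, 4 were kept and 2 were called lower early, and the summed level of the kept ones was -0.41, 0.32, 2.82 and 6.29. The sum at 16 h was mostly DCN, at 6.06, with COL1A2 at 2.92, COL3A1 at 1.24 and COL1A1 at 0.24. On CTR, COL3A1 and COL1A1 were higher than that (1.67 and 1.64), while DCN and COL1A2 were lower (-2.52 each). Of 4 endothelial markers only VWF was kept; it was called higher early, with levels of 1.88, 1.02, -1.70 and 0.54 (limma adjusted p = 0.169), and CDH5 and KDR were not detected on 2 h, 4 h or 16 h. The high leukocyte markers of 30 min and 2 h, and the high milk protein genes of 4 h and 16 h given below, were above the levels of these lists on the other slide, although all samples carry the label of mammary epithelial cells. Whether the labels of this slide are right was not tested, and every difference below is between arrays as labelled. The part of other cell types in the differences was not tested, and more cells of a type cannot be told apart from more RNA per cell.

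**Figure D1:**
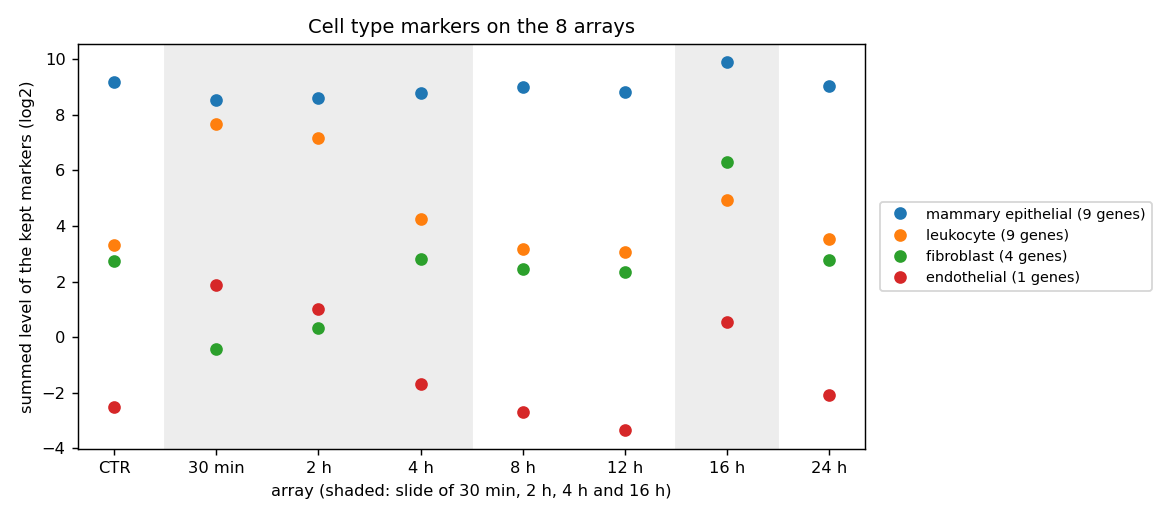
Summed level (log2) of the kept markers of 4 cell types on each of the 8 arrays, with the slide of 30 min, 2 h, 4 h and 16 h shaded; each point is 1 array. Leukocyte markers reach 7.67 and 7.15 at 30 min and 2 h and lie between 3.06 and 4.95 elsewhere. The summed level of fibroblast markers is highest at 16 h (6.29), mostly through DCN (6.06).

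Arrays of a side were closer to each other than to those of the other side. The level of bright probes correlated with a Pearson r of 0.979 between 30 min and 2 h and of 0.934 between 4 h and 16 h, and of 0.865 to 0.902 between sides, over probes, which are not independent replicates. At least 3-fold differences separated 0.606% of bright probes between 30 min and 2 h, 2.9% between 4 h and 16 h, and 4.53% to 10.4% across sides.

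A probe was called where the side means differed at least 3-fold and both arrays of a side lay above both of the other. Of the bright probes 295 were called higher early (2.8%) and 320 lower early (3.03%). The near balance depends on the arrays and the background correction: the counts were 274 and 659 without 4 h and 356 and 187 without 16 h, and the lower count was 102 with normexp background correction and no 30 min array. Over all kept probes the counts were 1743 (10.1%) and 560 (3.23%), and with no filter on dim probes they were 1759 and 1283. The median difference was -0.32 over bright probes and -0.15 over kept probes, and changes are read against that shift. In limma's moderated test over all 17342 kept probes, with Benjamini-Hochberg adjustment, 739 probes were higher early (4.26%) and 295 lower early (1.7%) at an adjusted p under 0.05, of which 228 (2.16%) and 189 (1.79%) were bright. That test has 2 residual degrees of freedom and its counts rest on single arrays: they were 2254 and 2412 without 4 h, 1818 and 715 without 16 h, 307 and 150 without 30 min, and 342 and 163 without 2 h.

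**Figure D2:**
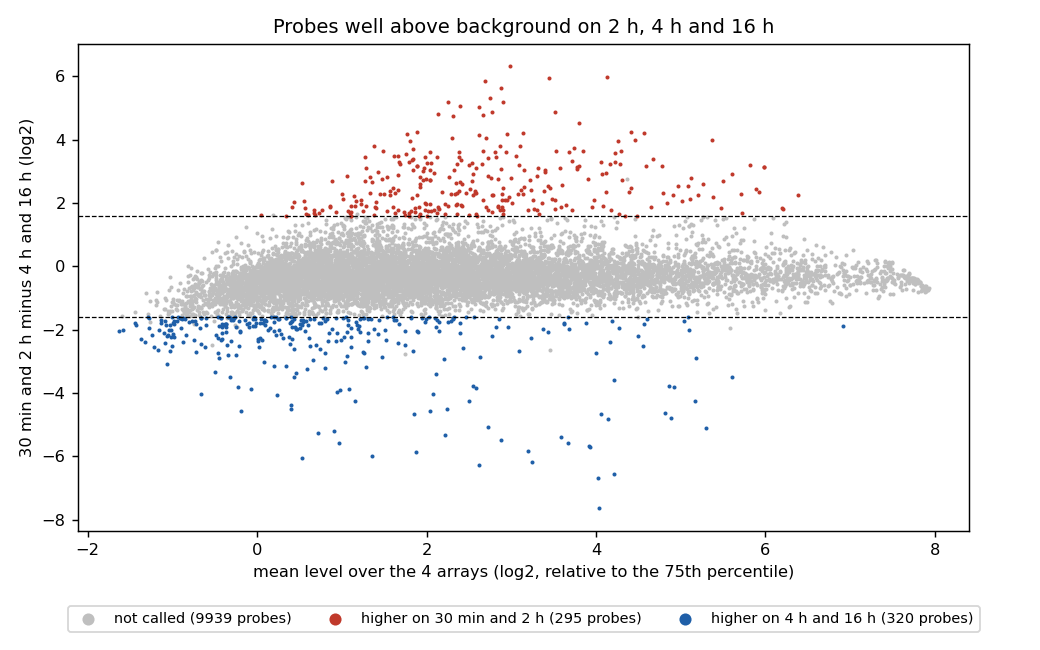
Difference between the mean of 30 min and 2 h and the mean of 4 h and 16 h (log2, vertical) against the mean level over the 4 arrays (log2, horizontal), 1 point for each of the 10554 bright probes, with dashed lines at 3-fold. The 295 probes called higher early and the 320 called lower early are coloured. At the lowest mean levels the called probes are mostly lower early. The filter favours this, since a bright probe had to reach a higher level at 16 h than at 2 h or 4 h.

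The probes behind the leading genes are 60 bases long and were designed on cattle sequence, and their coordinates are those of the array's annotation on Btau_3.1. At most 30 bases of each are shown, to identify the transcript that was measured. Capitals mark ATTTA, a pentamer known from unstable transcripts such as those of cytokines.

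IL8: aatcctgcttttttgttttcggtttttgta
IL1B: gcatagcatagcATTTAtgaatagggaaga
NFKBIZ: aaagtatggctgttatgtgaatctgtccat
TYROBP: acagagtggcctccatgagatgtcagacct
CSN1S2: tagctgatgattATTTAaaatcctttccct
FABP3: gctactcctggactcggcaccagattgcct
ELF5: attctggaatgggaagatagggaacaaggt

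The IL8 probe lies at chr6:91793390-91793449 (+), the IL1B probe at chr11:48249271-48249330 (-) and the NFKBIZ probe at chr1:47306292-47306351 (+). The TYROBP probe lies at chr18:46016252-46016311 (-), the CSN1S2 probe at chr6:88427396-88427455 (+), the FABP3 probe at chr2:126267912-126267971 (+) and the ELF5 probe at chr15:64735698-64735757 (-). No gene models of that build were used here, so exon and UTR positions are not given. ATTTA occurred in 7.12% of the bright probes called higher early, in 6.56% of those called lower early and in 7.76% of all bright probes. Over kept probes, which hold those of IL8 and IL1B, the shares were 9.52%, 6.07% and 8.02%. TAAAT, its reverse complement, occurred in 7.46%, 8.44% and 10.6% of the same groups of bright probes. Over kept probes its shares were 12.2%, 9.29% and 10.5%.

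Cytokines and chemokines held the 2 largest bounds among named genes higher early. IL8 (CXCL8), which attracts neutrophils, had levels of 6.42 at 30 min and 6.80 at 2 h and was not well above background at 4 h or 16 h. It was at least 184-fold higher early (limma adjusted p = 0.00279), and its 2 other kept probes were also called higher. IL1B, a pyrogenic cytokine, had levels of 6.66 and 5.75 and was at least 139-fold higher early (limma adjusted p = 0.00279). The bounds set the mean of the bright side against the detection limit of the dim arrays, or against the probe's own value where that is higher. A gene with a bound, in either direction, passed the filter through its bright side, and the values of its dim side are near background. Its limma p is therefore given as a value only and is no separate support for the difference. CXCL2, CCL3 and CCL4, which attract neutrophils and monocytes, were at least 101-fold, 115-fold and 111-fold higher early, and TNF at least 10.3-fold. TNFRSF1B, a TNF receptor, and MEFV, the inflammasome sensor pyrin, were at least 120-fold and 103-fold higher early. NOS2, the inducible nitric oxide synthase, and DEFB5, a beta-defensin, had bounds of 112-fold and 54.3-fold. IL6 stayed dim on both sides, with a bound of 1.38-fold and a limma adjusted p of 0.0972.

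Chemokines measured on both sides were mixed: of 11 bright probes 6 were called higher early and 1 lower, with a median difference of 2.28. GRO1 (CXCL1) had levels of 6.28, 6.22, 2.07 and 2.50. Both early arrays lay far above both late arrays, a difference of 3.96 (SE 0.24; limma adjusted p = 0.00279). CCL5, a T cell and monocyte attractant, had levels of 6.59, 6.32, 1.00 and 3.95, with 16 h between 4 h and the early arrays (limma adjusted p = 0.0662). CXCL14, a chemokine of epithelia, ran the other way, with levels of -1.97, -0.79, 1.02 and 2.54. CXCL16 was split between probes: the brightest was flat (5.50, 5.41, 5.28 and 5.42), while the other kept probe differed by 2.28 and was called higher early. CXCL10 differed by -1.21 without a call. Of the 30 kept probes of interleukins, TNF and colony stimulating factors only 2 were bright, those of IL1RN and LTB, and both were called higher early. LTB, a TNF family ligand, had levels of 4.20, 4.46, 0.04 and 0.49.

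NF-kB subunits, inhibitors and feedback genes were higher early, in 12 of 18 bright probes by the 3-fold call and in 12 by limma, with none lower and a median difference of 2.98. NFKBIZ, a nuclear NF-kB cofactor, had levels of 5.45, 4.67, 0.16 and 0.38, a difference of 4.79 (SE 0.32; limma adjusted p = 0.00313). TRAF1, an adaptor of TNF receptors, had levels of 5.43, 5.04, 1.21 and 0.86. The early and late arrays did not overlap for either gene. NFKBIA, the inhibitor that holds NF-kB in the cytoplasm, stayed high throughout, at 7.22, 7.02, 4.28 and 5.05. The subunits NFKB1 and RELB differed by 3.56 and 3.26 (limma adjusted p = 0.00389 and 0.00346).

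Immediate early and stress transcription genes changed in part. NR4A1, an orphan nuclear receptor induced by stress, had levels of 5.49, 4.77, -0.41 and 0.63, a difference of 5.02 (SE 0.43; limma adjusted p = 0.00472). FOSB, an AP-1 subunit, had levels of 5.72, 5.49, 1.49 and 2.24, but its 2 other kept probes differed by 0.72 and 1.51 and were not called. Of 35 bright probes 5 were called higher early and 1, of EGR1, lower. FOS had levels of 3.33, 3.73, 3.15 and 4.03, with the sides overlapping.

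Leukocyte genes were higher early in 10 of 19 bright probes and lower in none, with a median difference of 2.57. TYROBP, the signalling adaptor of myeloid receptors, had levels of 5.74, 5.25, -0.77 and 1.36, a difference of 5.20 (SE 0.68; limma adjusted p = 0.0156). SPI1, the myeloid transcription factor PU.1, had levels of 5.12, 5.28, -0.98 and 1.66, and CSF1R, the receptor of macrophage growth factor, of 4.38, 3.94, -0.24 and 2.06. For each of these the 16 h array was above 4 h and below both early arrays. The list's median depended on the 4 h array: it was 1.17 without 4 h and 3.14 without 16 h. PTPRC, the common leukocyte antigen, was split between probes: the brightest had levels of 3.15, 3.10, 3.40 and 3.36, while the other kept probe differed by 5.34 and was called higher early.

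Antigen presentation genes were called higher early as well, but fewer by limma. Of 10 bright probes of MHC class II and its loading 8 were called higher early and 4 by limma, and of 25 of MHC class I and peptide loading 13 and 3, with no bright probe lower in either list. A BOLA-DQB probe that was not bright was called lower early, with a difference of -4.14. BOLA-DRA, a class II chain, had levels of 6.23, 5.33, 1.20 and 3.88, and CD74, the invariant chain, of 4.54, 3.73, 0.55 and 1.50. The class I probes named BOLA and BOLA-NC1 belong to a family of near-identical genes, and their signal can be shared. BOLA-NC1 had levels of 6.48, 6.27, 1.73 and 4.23, again with 16 h between 4 h and the early arrays. In the interferon response list 6 of 18 bright probes were called higher early, with a median difference of 0.23. ISG15, a ubiquitin-like interferon target, had levels of 6.96, 6.74, 4.57 and 4.56 (limma adjusted p = 0.00622).

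Heat shock proteins changed little between the sides. Of 58 bright probes 4 were called higher early and 1 lower, with a median difference of 0.17, against -0.32 over all bright probes. HSPA1A, the inducible HSP70, had levels of 5.88, 5.30, 4.27 and 3.15, a difference of 1.88 that limma did not call (adjusted p = 0.0654), and its 4 other kept probes were all called higher by the 3-fold rule. HSPH1, an HSP110 chaperone, had levels of 3.03, 2.89, 2.24 and 0.34, so its call rests on the 16 h array. HSPA6, a strictly inducible HSP70, was at 2.57 at 30 min and -0.92 at 2 h and was not well above background at 4 h or 16 h, at least 3.33-fold higher early (limma adjusted p = 0.116). That bound rests on the 30 min array, since without it the fold over the limit was 0.993. HSP90AA1 had levels of 6.33, 6.28, 6.00 and 5.41 and HSPD1, the mitochondrial chaperonin, of 3.06, 2.87, 2.96 and 3.08, and neither was called. Of 41 bright probes of ER chaperones and the unfolded protein response, 1 was called, of MANF. Without 16 h the heat shock list's median was -0.07.

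Milk protein genes ran the other way and had the most negative median of the lists. Of 23 bright probes 22 were called lower early and none higher, 19 were lower by limma, and the median difference was -4.79. CSN1S2, the alpha-s2 casein, had levels of 0.64, 0.71, 6.47 and 8.27, a difference of -6.69 (SE 0.57; limma adjusted p = 0.00472). LALBA, the whey protein that directs lactose synthesis, had levels of 1.52, 0.35, 7.10 and 7.89, and CSN1S1 of 3.23, 2.26, 7.26 and 8.45. The sides did not overlap for any of these, and 16 h was above 4 h. PAEP, the beta-lactoglobulin gene, was high on all 4 arrays, at 6.67, 5.30, 7.50 and 8.21, and differed by -1.87 (limma adjusted p = 0.0937), while its 2 other kept probes differed by -4.79 and -3.79. On the 4 arrays of the other slide, CTR included, CSN1S1 and LALBA were not well above background, while the brightest CSN2 probe was on all 4, with levels of 1.99 to 2.28.

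Milk fat genes followed, with 14 of 29 bright probes called lower early, 1 higher, and a median difference of -1.46. FABP3, the fatty acid binding protein of lactating epithelium, had levels of 1.36, 0.82, 7.20 and 6.31, a difference of -5.66 (SE 0.37; limma adjusted p = 0.00289). GPAM, which starts glycerolipid synthesis, had levels of -1.88, -1.40, 4.40 and 4.29. The 4 h level was above 16 h for FABP3, while the median level of the list's bright probes was 3.76 at 4 h and 3.82 at 16 h. BTN1A1, a protein of the milk fat globule membrane, was not well above background at 2 h and was at least 92.5-fold lower early (limma adjusted p = 0.00279). The probe called higher was of PPARG. Of 29 bright probes of cholesterol synthesis and uptake none was called in either direction by the 3-fold rule.

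**Figure D3:**
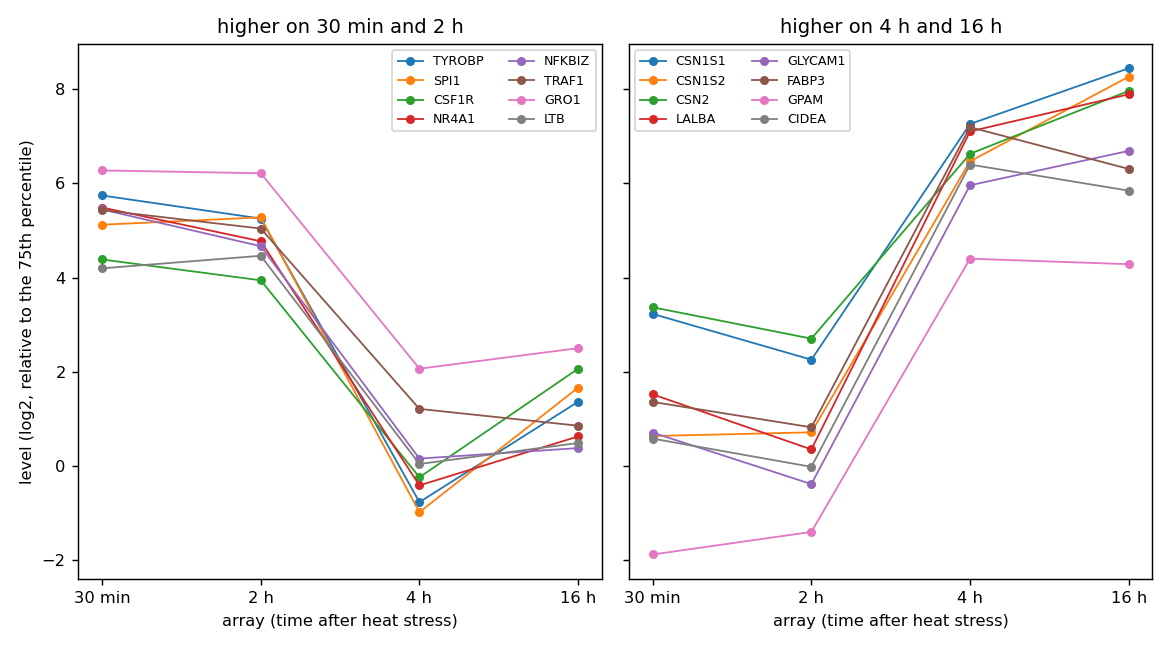
Levels (log2, relative to the 75th percentile of the array) of 8 genes called higher early (left) and 8 called lower early (right) on the arrays of 30 min, 2 h, 4 h and 16 h; each point is 1 array. The drawn genes of the left panel drop between 2 h and 4 h and those of the right panel rise. That step and the lack of overlap between sides are fixed by the call through which the genes were chosen.

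Among the named genes with the largest lower early values, chosen for those values, were several known from secretory epithelium. ELF5, the transcription factor of alveolar differentiation, had levels of 4.40 at 4 h and 5.17 at 16 h, was not well above background at 2 h, and was at least 57.7-fold lower early (limma adjusted p = 0.00279). SCGB1D, a secretoglobin, was at least 146-fold lower early, the largest bound in that direction among named genes. CIDEA, a lipid droplet protein, had levels of 0.58, -0.02, 6.40 and 5.85. LPO, the lactoperoxidase of milk, had levels of -2.37, -1.29, 4.69 and 2.83, and PIGR, which carries immunoglobulin A across epithelium, of -2.82, -0.57, 2.41 and 4.60. In the epithelial list as a whole 5 of 55 bright probes were called lower early and none higher, and limma called 0 at an adjusted p under 0.05 (23 lower and 0 higher at an unadjusted p under 0.05), with a median difference of -0.69. KRT8 shows a split between probes: its brightest differed by -0.59 and was not called, while 1 of the 3 others was called lower.

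A minority of matrix probes was called lower early. Of 15 bright collagen probes 3 were called lower and none higher, and of 37 of matrix glycoproteins and proteoglycans 5 and none, against 3.03% lower of all bright probes. The median differences were -1.25 and -0.86, against -0.32. At an unadjusted limma p under 0.05, 11 of the 15 and 24 of the 37 were lower and none higher, and at an adjusted p under 0.05, 3 and 6 were lower. The median level of bright collagen probes was 2.40 at 4 h and 2.39 at 16 h, and that of the glycoproteins and proteoglycans 2.73 and 2.90. Some named members were far higher at 16 h than at 4 h. DCN, a small collagen-binding proteoglycan, was not well above background at 2 h, had levels of 2.34 at 4 h and 6.06 at 16 h, and was at least 38.5-fold lower early (limma adjusted p = 0.0261). BGN, its relative, had levels of -0.31, -1.61, 0.83 and 5.72, a difference of -4.24 with an SE of 1.53 (limma adjusted p = 0.156). COL1A2 was at -0.93 at 4 h and 2.92 at 16 h and was at least 4.18-fold lower early (SE 1.26, limma adjusted p = 0.0857). Its 4 h level was below the -0.09 used as the limit for 30 min, so that bound rests mainly on the 16 h array. DCN and COL1A2 are themselves among the kept fibroblast markers, so their change and that of the markers are the same values. In the list of fibroblast and contractile genes none of 20 bright probes was called by the 3-fold rule, with a median difference of -0.42, against -0.32 over all bright probes. Of its 6 kept probes that were not bright, 4 were called lower early. The part of fibroblasts was not tested. In the insulin-like growth factor axis 7 of 18 bright probes were called lower early, among them IGF2 (levels of -0.76, 0.16, 1.99 and 3.77).

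**Figure D4:**
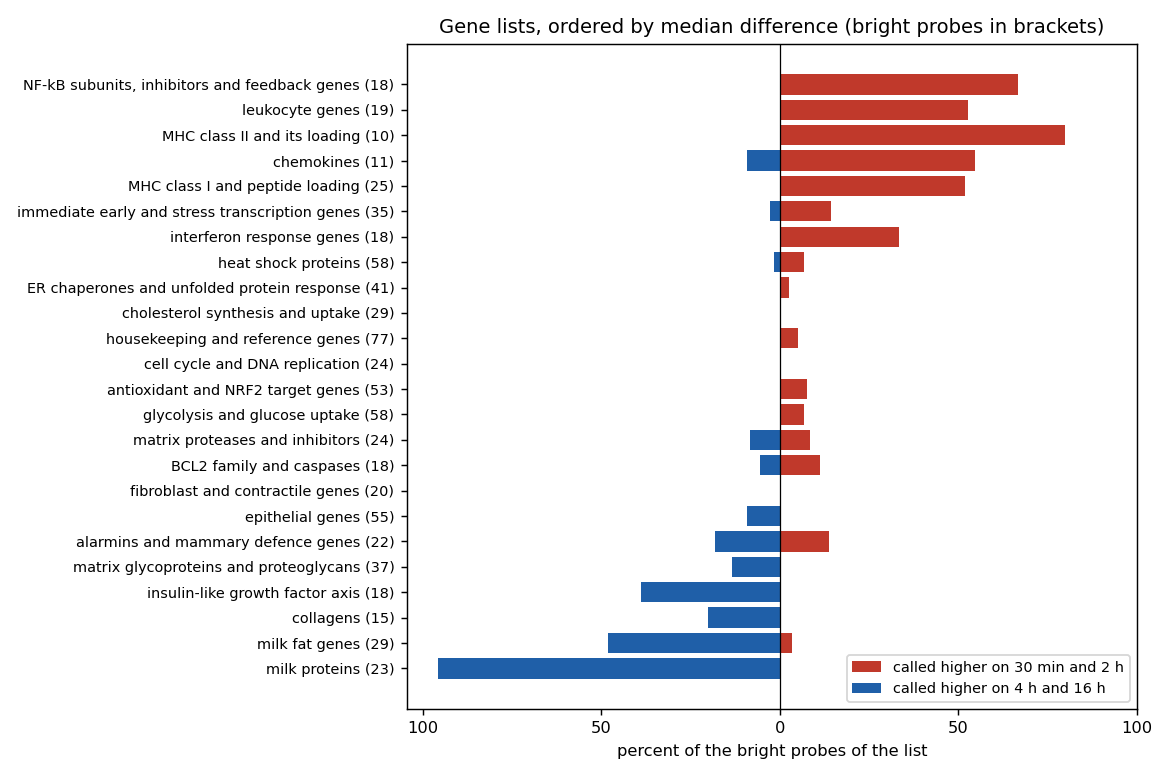
Percent of the bright probes of each gene list called at least 3-fold higher on 30 min and 2 h (right) or on 4 h and 16 h (left), with the number of bright probes in brackets and lists ordered by median difference. NF-kB genes (median difference 2.98) stand at the top and milk proteins (-4.79) at the bottom; for all bright probes the shares are 2.8% and 3.03%.

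The remaining lists are read against the 2.8% and 3.03% of all bright probes. In cell cycle and DNA replication none of 24 bright probes was called by the 3-fold rule. Of 53 antioxidant and NRF2 target probes 4 were called higher early, and TXNRD1, which reduces thioredoxin, had levels of 4.62, 4.62, 2.65 and 2.71 (limma adjusted p = 0.00804). Of 58 glycolysis and glucose uptake probes 4 were called higher, among them those of SLC2A3, a glucose transporter, which differed by 3.29, and PFKFB3, which raises glycolytic flux, by 2.94. In the BCL2 family and caspases 2 of 18 were called higher and 1 lower. BCL2A1, an NF-kB target that blocks apoptosis, was not bright and was at least 48.7-fold higher early. Alarmins and mammary defence genes were called both ways, with 3 higher and 4 lower of 22. Among housekeeping and reference genes 4 of 77 were called higher, those of B2M, EEF1A1, RPL19 and RPS23. B2M is also in the MHC class I list, and the study used EEF1A1 and RPS23 among its reference genes for quantitative PCR. The brightest ACTB probe had levels of 7.42, 7.53, 7.49 and 7.44 and was saturated on 1 of 2 h, 4 h and 16 h. Its 3 other kept probes differed by 0.06 to 3.16, and none was called.

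The late arrays differed from each other within both groups of called bright probes. Of the 295 called higher early, 217 were higher at 16 h than at 4 h, with a median of 0.73, and of the 320 called lower early 263 were, with a median of 0.71. Over all bright probes the median of 16 h minus 4 h was 0.09, and the number of them higher at 16 h was not counted. The early mean lay above 4 h by a median of 2.87 and above 16 h by 2.11 in the first group. On the other slide, outside a dark region of the CTR array, 260 of 270 probes called higher early (96.3%) were below both early arrays on all of CTR, 8 h, 12 h and 24 h, and 197 of 302 called lower early (65.2%) were below both late arrays on all of them. Over all bright probes the shares were 21.6% and 28%, but the called probes were chosen for being high on the arrays they are set against. Slide and time cannot be told apart in that last comparison.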

How the data were processed

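Total RNA was labelled with Cy3 and hybridised to Agilent bovine 4x44K arrays, 1 array a time. The deposited log2 values were made by the authors in GeneSpring GX from Agilent Feature Extraction 9.5.3.1 output, scaled by array on its 75th percentile, and are centred on each probe's median over the 8 arrays. The deposited scanner files hold the intensity of each spot and the flags for signal well above background. The log2 differences of 2 h, 4 h and 16 h matched the scanner intensities (SD of the deviation at most 0.0077 over 10705 probes), while those with 30 min did not (SD 3.25), so the flags of 30 min were not used.

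Levels were the deposited log2 values plus each probe's baseline from the scanner intensities. The mean of 4 h and 16 h was subtracted from that of 30 min and 2 h. limma (lmFit, eBayes with trend) was run on all kept probes. It was also run on simulated data with independent noise for each probe. Those data held no effect shared by the probes of an array, so that run is no support for the counts. Versions were R 4.3.3, limma 3.58.1, Python 3.11.15, numpy 2.4.6, pandas 2.3.3 and scipy 1.17.1. The number of arrays limits the precision; with 2 arrays a side an exact permutation test of 1 gene cannot go below p = 0.333. The labels do not say that arrays came from separate cultures, so p-values measure the spread between these samples.

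Members, gene lists and tests were chosen with earlier results of these data known. Named genes were up to 6 called members of each list with the largest differences, the 12 highest and 12 lowest called bright genes and the 12 largest bounds each way, by the brightest kept probe of a gene. Other list members are named for their role, with values, whatever their call; this and the probes shown were chosen after values were seen. Promoters were not analysed here.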

Additional observations from a re-analysis of the deposited data

How the results depend on the processing

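No paired analysis was possible because each time has 1 array and the labels give a single replicate number. The 3-fold counts over kept probes (1743 higher, 560 lower) were 926 and 243 with normexp background correction and no 30 min array. They were 635 and 214 with a common floor. The lower count was 1283 with no filter and 1603 at a 2-fold cutoff. In the alternative set up for distinct gene names the counts were 1100 and 359. These are not all the names called, since the called kept probes carried 1370 and 455 gene names. Bright counts (295 higher, 320 lower) were 504 and 1150 at 2-fold and 194 and 212 in the gene name alternative. The called bright probes carried 240 and 275 gene names. The lower bright count was 102 with normexp and 164 with the floor. Leaving out 1 array gave 1698 to 2051 higher and 438 to 991 lower, and 267 to 356 and 187 to 659 among bright probes; the lower count was 659 without 4 h and 187 without 16 h. The limma counts (739 and 295) were 429 and 135 without a trend, 1989 and 1578 with no filter, 235 and 188 on bright probes alone, and 307 to 2254 and 150 to 2412 leaving out 1 array. The median of all kept probes was 0.034 with arrays centred on bright probes and -0.086 with quantile normalization, and that of bright probes -0.14 and -0.23.

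With arrays centred on bright probes the list medians were 0.35 for heat shock proteins, 2.46 for chemokines, 3.17 for NF-kB genes and -1.28 for milk fat genes, which were -1.38 with quantile normalization. With normexp they were 2.68 for NF-kB genes, -0.30 for epithelial genes and -1.13 for milk fat genes. Leaving out 1 array gave -0.07 to 0.33 for heat shock proteins, 1.90 to 2.48 for chemokines, 2.53 to 3.10 for NF-kB genes, 1.17 to 3.14 for leukocyte genes, -0.92 to -0.57 for epithelial genes, -5.29 to -4.13 for milk proteins and -1.72 to -1.48 for milk fat genes. None of the 2030 values of the 203 called named genes under these alternatives changed sign, and 264 moved by more than the spread within sides. A call requires sides that do not overlap, so leaving out 1 array could not change the sign. The kept signs are therefore no test of the direction. The cause of these changes was not tested. Signal near background limits the dim side of many genes, and folds there are bounds.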
